A study of Homo sapiens with 6 samples.

Results

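SR proteins and heterogeneous nuclear ribonucleoproteins (hnRNPs) are RNA-binding proteins that choose which splice sites of a pre-mRNA are used. The genes described here were taken by symbol: the SRSF genes, the TRA2 genes, the CLK and SRPK kinases, every gene whose symbol starts with HNRNP, PTBP1 and the ESRP genes. This rule gave 45 of the 28563 genes in the deposited table, of which 43 were tested, and SRSF12 was not analysed here. Their transcripts were mostly lower in cells treated with polydatin (PD) than in cells treated with dimethyl sulfoxide (DMSO). Of the 43 tested genes, 33 were lower, 1 was higher and 9 did not pass the test, while 26.2% of all 14400 genes tested were lower and 31.9% were higher.

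Poly(A) RNA was sequenced from cells labelled HepG2, a human line derived from a liver tumour, after 24 h of treatment. The treated group received PD, a plant glucoside of resveratrol, at 336 µM in the labels and at a somewhat lower dose in the methods. The control group received the vehicle DMSO alone, and PD was dissolved in DMSO, so both groups carried the solvent. Each group had 3 libraries from separate dishes of 1 line, so the p-values measure the spread between dishes and not between lines or patients. The libraries held 16308476 to 18071632 fragments, worked back from the deposited FPKM values (fragments scaled to the length of the gene and the size of the library). FPKM is per length, so levels of different genes can be set side by side only as far as the lengths taken match the mRNAs. That match was not tested. CLK3, at a mean of 3.64 FPKM in DMSO, held 1142 to 1309 fragments per library, and CLK2, at 17.6 FPKM, held 874 to 1135. Ranks and sums of levels below are in FPKM and share this limit.

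The label was checked against marker genes. Of 20 hepatocyte markers, 12 had a row in the table and 3 (CPS1, RBP4 and FOXA1) reached 1 FPKM in any library. The other 9, among them APOA1, SERPINA1, FGA, TF and HNF4A, stayed at or under 0.172 FPKM in all 6 libraries, and ALB and AFP were not analysed here. The defining markers that were measured thus go against the label, and the cells are called here by the label only. The summed FPKM of the hepatocyte list was 223 to 230 in DMSO and 109 to 114 in PD, nearly all of it CPS1, a urea cycle enzyme. CPS1 was lower in PD and the other 2 tested, FOXA1 and RBP4, were higher, and the part of this list in the splicing factor result was not tested. In bulk RNA, fewer cells of a type and less RNA per cell cannot be told apart.

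SR proteins carry a domain of repeated arginine and serine (RS domain), bind enhancer sequences in exons and help the spliceosome to recognise the neighbouring splice sites. Many hnRNPs bind elsewhere on the pre-mRNA and often block the use of a site, so the balance of both groups sets which exons enter the mRNA. CLK and SRPK kinases phosphorylate the RS domain and control where SR proteins reside in the cell. Many SR and hnRNP genes also limit their own mRNA through exons that carry stop codons and send the transcript to nonsense-mediated decay; the gene-level values used here do not separate such forms.

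**Figure D1:**
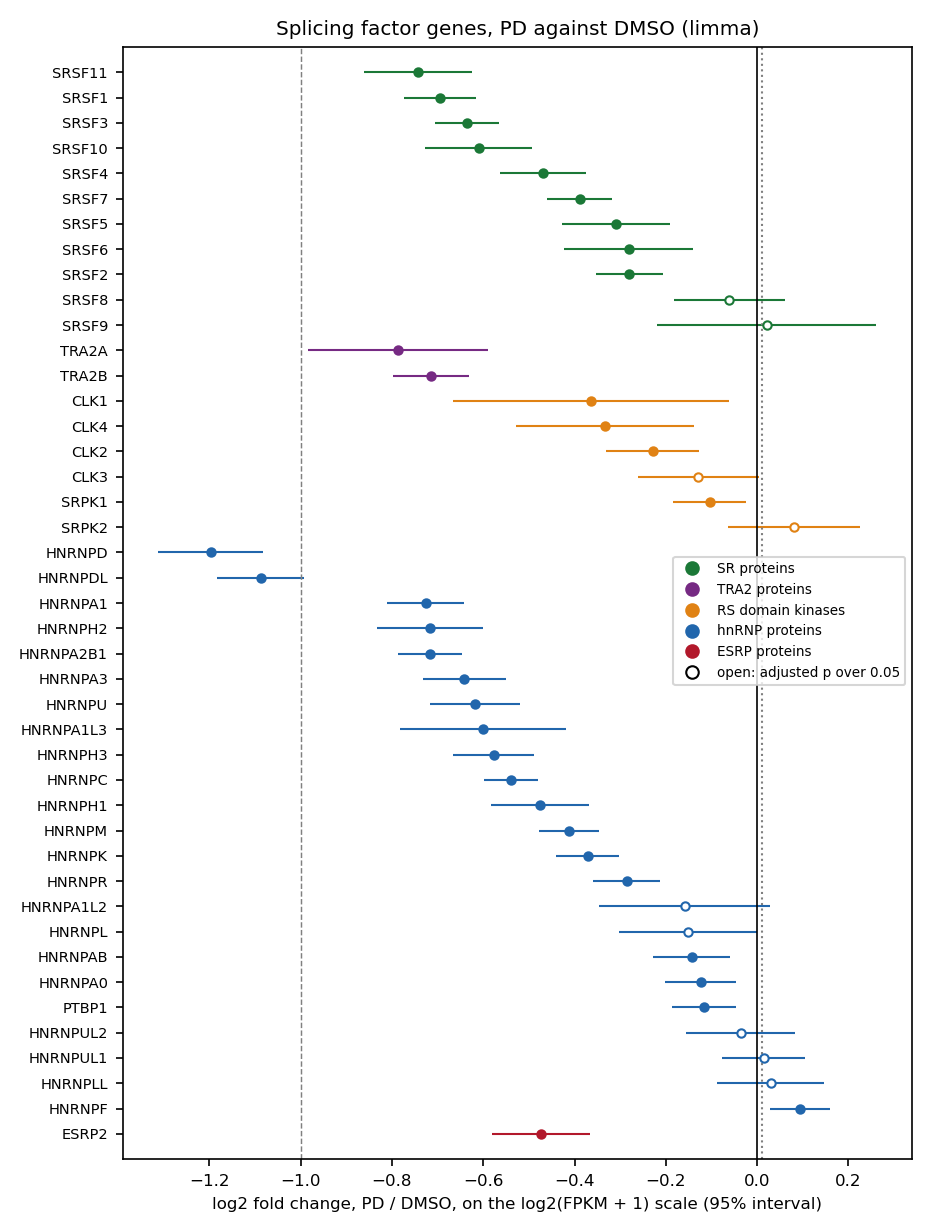
Log2 fold change of the 43 tested splicing factor genes, PD over DMSO, on the log2(FPKM + 1) scale with the 95% interval from limma (3 libraries per group). Filled points passed an adjusted p of at most 0.05, the dashed line is a fall to 2-fold lower and the dotted line is the median of all genes tested (0.01). HNRNPD and HNRNPDL lie left of the dashed line, and HNRNPF is the 1 filled point right of 0.

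The fall was broad and mostly modest in size. On the log2 scale the median change of these 43 genes was -0.37, against 0.01 over all genes tested. Of the 33 lower genes, 16 fell by more than 0.5 on the log2 scale and 17 by 0.5 or less. All 3 PD values lay under all 3 DMSO values for 35 genes and over them for 1, where 29.9% and 35.6% of all tested genes did so. Most of these genes are abundant, so they were also set against abundant genes: of the 37 with a mean of at least 10 FPKM, 30 were lower and 1 was higher, beside 33.2% lower and 38.1% higher among 4839 such genes. Under upper quartile scaling, which moved the split of all called genes from 4588 higher and 3780 lower to 3798 higher and 4675 lower, the median of the splicing factors was -0.46. The median of all genes tested was -0.05 under that scaling.

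A fall of at least 2-fold was met by 2 genes, HNRNPD and HNRNPDL, where 1.57% of all tested genes fell and 3.61% changed this far in either direction. HNRNPD, also named AUF1, binds AU-rich elements and is known for its part in mRNA decay. Its level was 60.8, 58.2 and 57.5 FPKM in the DMSO libraries and 23.5, 26.3 and 25.6 FPKM in the PD libraries. The groups stood far apart: the lowest DMSO library was over 2-fold higher than the highest PD library. The mean went from 58.8 ± 1.77 to 25.1 ± 1.49 FPKM (SD, n = 3), a log2 fold change of -1.20 (SE 0.05, limma adjusted p = 3.6e-06). HNRNPD moved from the 11th to the 23rd highest FPKM of the 45 genes.

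HNRNPDL, a paralogue of HNRNPD, binds the same kind of RNA elements. Its level was 35.3, 37.6 and 34.4 FPKM in DMSO and 16.4, 16.2 and 16.3 FPKM in PD. The 3 PD libraries were nearly equal, and all of them were under every DMSO library. The log2 fold change was -1.09 (SE 0.04, limma adjusted p = 3.2e-06). The ratio of HNRNPD to HNRNPDL was 1.65 ± 0.0917 in DMSO and 1.54 ± 0.0996 in PD (SD, n = 3), so the mRNAs fell in similar proportion. This ratio was chosen after the values were seen and was not tested.

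Both genes lie on the minus strand of chromosome 4 in hg38, HNRNPD at chr4:82352498-82374503 and HNRNPDL at chr4:82422565-82430462, with 48061 bases between them. HNRNPDL starts 127 bases from ENOPH1, a gene of the methionine salvage pathway that is read in the opposite direction. ENOPH1 was at 35.2 ± 1.42 FPKM in DMSO and 36.9 ± 0.606 FPKM in PD (SD, n = 3; log2 fold change 0.07, limma adjusted p = 0.17), and it did not pass the test. HNRNPD overlaps the antisense gene HNRNPD-DT, which was not tested and had 2 to 12 fragments in a library (means of 0.561 FPKM in DMSO and 0.191 FPKM in PD).

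The stretches just before the RefSeq starts of both genes are shown because these are the genes with the largest falls and both hold a CACGTG, printed in capitals. They come from RefSeq (GRCh38.p14), read 5′ to 3′ on the gene's strand, and are trimmed so that they hold no exon of any gene in GENCODE 44. The HNRNPD stretch is chr4:82374000-82374118, with its CACGTG starting 27 bases before the RefSeq start at 82373991. The span of HNRNPD given above, from GENCODE 44, reaches farther upstream, so the stretch lies inside that span, in an intron of transcripts that start upstream of it. The HNRNPDL stretch is chr4:82430463-82430589, with its CACGTG starting 127 bases before the RefSeq start at 82430462, which is also the GENCODE 44 start, at the border with ENOPH1.
HNRNPD: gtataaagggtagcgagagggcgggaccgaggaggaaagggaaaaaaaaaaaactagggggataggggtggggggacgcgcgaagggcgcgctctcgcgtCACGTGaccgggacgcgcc
HNRNPDL: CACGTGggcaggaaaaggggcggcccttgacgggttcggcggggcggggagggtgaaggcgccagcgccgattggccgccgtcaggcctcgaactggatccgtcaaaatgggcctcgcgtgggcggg

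Short motifs known from promoters were counted in RefSeq windows of 300 bases, 250 of them before the start, which matched 39 of the 45 genes by symbol. SRSF2, TRA2A, HNRNPA1, HNRNPA1L3, ESRP1 and ESRP2 had no entry. A gene with several windows counted as holding a motif if any of its windows did. The comparison took all 27305 genes with a window, without a filter on gene type or level. The part of window number and gene type in the shares was not tested. CACGTG, which reads the same on both strands and is the E-box bound by MYC and USF proteins, was in 9 of the 39 genes (23.1%), beside 8.77% of all 27305 genes with a window. The 9 were HNRNPD, HNRNPDL, HNRNPA3, HNRNPH2, HNRNPH3, HNRNPM, CLK2, CLK4 and HNRNPUL1. Among the genes lower in PD it was in 8 of 28, and among the others in 1 of 11.

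The other motifs were searched on both strands and also had higher shares in these genes than in all windows. CCAAT was in 56.4% against 39.7%, CGGAAG, an ETS core, in 51.3% against 22.6%, and GGGCGG, an SP1 core that can share bases with CGGAAG, in 76.9% against 48.3%. TATAAA was in 17.9% against 14.0%. Lower genes did not hold each motif more often than the others. CCAAT was in 14 of 28 lower genes and 8 of the 11 others, CGGAAG in 11 and 9, GGGCGG in 21 and 9, and TATAAA in 6 and 1. The 11 others include HNRNPUL2-BSCL2, a readthrough gene that was not tested. It overlaps HNRNPUL2 on the same strand and held the same motifs, so these genes are not separate cases. The motifs were chosen with the values known, a match is a description and not a binding site, and promoters of genes of like level were not compared.

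**Figure D2:**
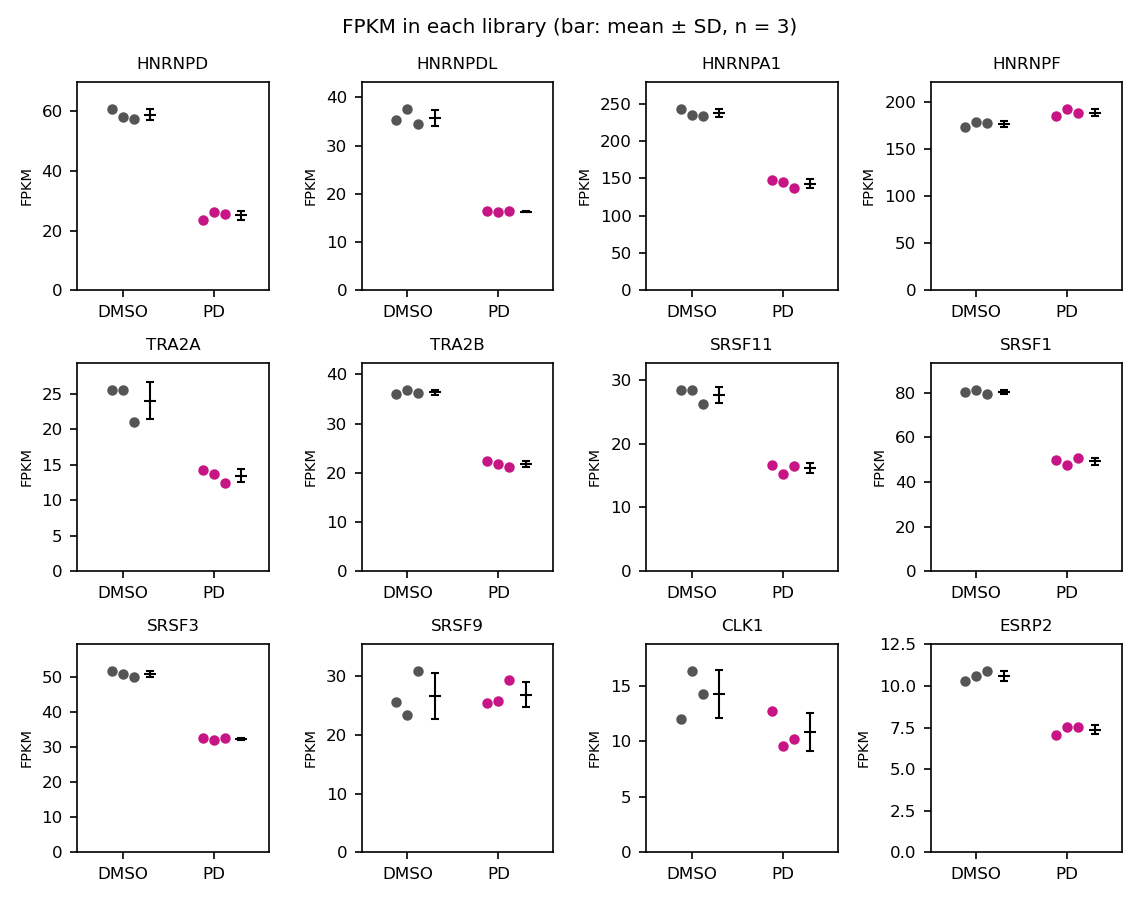
FPKM in each of the 3 DMSO (grey) and 3 PD (magenta) libraries for 12 splicing factor genes, with the mean ± SD beside the points and each vertical axis starting at 0. The groups overlap for SRSF9 and CLK1, PD lies above DMSO for HNRNPF, and PD lies below DMSO for the other 9 genes.

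Of the 24 hnRNP genes, PTBP1 included, 23 were tested, of which 17 were lower, 1 was higher and 5 did not pass, and the median change was -0.41 on the log2 scale. HNRNPA1, a repressor of exons that also shuttles mRNA out of the nucleus, had the highest FPKM of the 45 genes in DMSO. It measured 243, 235 and 234 FPKM in DMSO and 147, 145 and 136 FPKM in PD, with no overlap. The mean fell from 237 ± 5.18 to 143 ± 5.74 FPKM (SD, n = 3; log2 fold change -0.73, SE 0.04, limma adjusted p = 6.9e-06). Copies of HNRNPA1 in the genome could take some of its reads. The table lists 19 HNRNPA1 pseudogenes, which together held 0.744% to 1.24% as many fragments as HNRNPA1 in each library. How reads that match both were counted is not given in the sources used here.

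HNRNPA2B1, which binds many of the same RNAs, fell by nearly the same proportion. It was at 134, 136 and 131 FPKM in DMSO and at 82.8, 79.3 and 80.8 FPKM in PD, a log2 fold change of -0.72 (SE 0.03, limma adjusted p = 3.8e-06). HNRNPA3, a further A/B-type protein, was at 41.6, 42.8 and 43.0 FPKM and then 27.9, 25.8 and 27.0 FPKM (log2 fold change -0.64, SE 0.04, limma adjusted p = 1.4e-05). Neither gene had overlapping groups. HNRNPA1L3, a gene copied from HNRNPA1, was at 5.72, 4.81 and 5.99 FPKM and then 3.17, 3.27 and 3.38 FPKM (log2 fold change -0.60, SE 0.08, limma adjusted p = 0.00046). It rests on 76 to 141 fragments per library, and reads from HNRNPA1 could be counted there, so its value is uncertain. The other copy, HNRNPA1L2, did not pass (log2 fold change -0.16, limma adjusted p = 0.13).

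HNRNPA0 and HNRNPAB, placed here by their names and not by their sequence, moved little. HNRNPAB was at 151 ± 1.42 FPKM in DMSO and 137 ± 5.95 FPKM in PD (SD, n = 3; log2 fold change -0.14, limma adjusted p = 0.011). HNRNPA0 had a log2 fold change of -0.12 (limma adjusted p = 0.015), and its adjusted p was 0.052 without PD replicate 3. After a trend with GC content and length was subtracted, HNRNPAB was at -0.26 (adjusted p = 0.00024), and HNRNPA0 was at -0.08 and did not pass (adjusted p = 0.15). Under upper quartile scaling they were at -0.23 and -0.21. Among the genes named HNRNPA or HNRNPAB, falls in the main setting thus ranged from about -0.12 to -0.73 on the log2 scale.

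The H and F proteins bind runs of G and are close in sequence, but their mRNAs moved apart. HNRNPH2 was at 38.4, 37.7 and 35.7 FPKM in DMSO and at 23.7, 21.3 and 21.9 FPKM in PD (log2 fold change -0.72, SE 0.05, limma adjusted p = 2.5e-05). HNRNPH1 was at 70.5, 66.9 and 66.3 FPKM in DMSO and at 51.0, 48.8 and 46.0 FPKM in PD (log2 fold change -0.48, SE 0.05, limma adjusted p = 0.00011). In both genes every PD library was under every DMSO library. HNRNPH3 also fell, by 0.58 on the log2 scale. HNRNPF was at 173, 178 and 178 FPKM in DMSO and at 185, 192 and 188 FPKM in PD, with no overlap between the groups.

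HNRNPF was the 1 gene of the set called higher, by 6.76% (log2 fold change 0.09, SE 0.03, limma adjusted p = 0.022). This call depended on single libraries and on the scaling. The adjusted p was 0.074 without DMSO replicate 1, 0.078 without PD replicate 2 and 0.060 without PD replicate 3, and the change was 0.01 under upper quartile scaling and -0.0058 after a trend with GC content and length was subtracted. The ratio of HNRNPF to HNRNPH1 was 2.45, 2.66 and 2.68 in DMSO and 3.62, 3.94 and 4.08 in PD, a mean of 2.60 ± 0.126 against 3.88 ± 0.238 (SD, n = 3). The ratio is taken within each library, so a scaling of the library does not change it. It was chosen after the values were seen and has no test.

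Other abundant hnRNPs fell. HNRNPU, a large protein that binds RNA and the nuclear scaffold, was at 137, 135 and 129 FPKM in DMSO and at 91.5, 85.0 and 83.8 FPKM in PD, without overlap (log2 fold change -0.62, SE 0.04, limma adjusted p = 2.3e-05). HNRNPC, which binds U tracts, fell by 0.54 on the log2 scale, HNRNPM by 0.41 and HNRNPR by 0.29. HNRNPK, which binds runs of C, fell by 0.37, from 181 ± 1.81 to 140 ± 3.94 FPKM (SD, n = 3). PTBP1, the polypyrimidine tract-binding repressor, was at 94.3 ± 0.643 and 86.9 ± 2.39 FPKM (SD, n = 3), a small fall (log2 fold change -0.12, limma adjusted p = 0.012). It was at -0.30 (adjusted p = 0.00019) after the GC content and length trend was subtracted and at -0.20 under upper quartile scaling.

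The hnRNPs that did not pass were HNRNPL, HNRNPLL, HNRNPUL1, HNRNPUL2 and HNRNPA1L2. HNRNPL, which binds CA repeats, had a log2 fold change of -0.15 (limma adjusted p = 0.078), and its relative HNRNPLL one of 0.03 (adjusted p = 0.64). HNRNPL passed as lower under upper quartile scaling (-0.23, adjusted p = 0.017), with voom on whole fragments (-0.16, adjusted p = 0.017), after the GC content and length trend (-0.27, adjusted p = 0.0096) and without PD replicate 2 (-0.21, adjusted p = 0.031), and was at -0.08 without PD replicate 3. HNRNPUL1 and HNRNPUL2 are relatives of HNRNPU, and unlike HNRNPU neither passed. HNRNPUL1 was at 42.4, 41.3 and 42.8 FPKM in DMSO and at 40.6, 43.8 and 43.5 FPKM in PD, with overlapping groups. Its log2 fold change was 0.01 (95% interval -0.08 to 0.10, limma adjusted p = 0.77), the smallest of the hnRNPs, although it was -0.15 (adjusted p = 0.0043) after the GC content and length trend was subtracted. HNRNPUL2 was at -0.04 (adjusted p = 0.57), and after that trend at -0.18 (adjusted p = 0.0091). The readthrough gene HNRNPUL2-BSCL2 had at most 2 fragments in a library and was not tested.

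**Figure D3:**
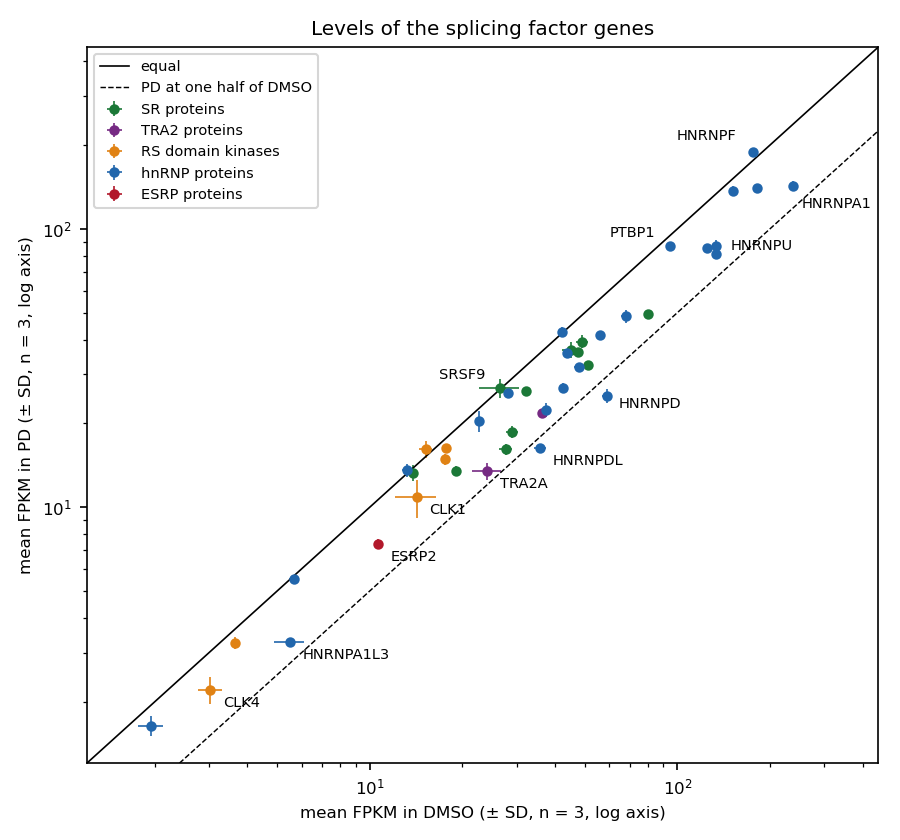
Mean FPKM in PD (vertical) against DMSO (horizontal) for the 43 tested genes, on log axes, with SD bars over 3 libraries and colours for the role groups. The solid line marks equal levels and the dashed line a level in PD 2-fold lower. HNRNPF lies just above the solid line, and HNRNPD and HNRNPDL lie under the dashed line.

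Unequal falls changed the order of levels in FPKM, which depends on the length taken for each gene. In DMSO, HNRNPA1 (237 FPKM) was followed by HNRNPK (181 FPKM) and HNRNPF (176 FPKM), then HNRNPAB (151 FPKM), and HNRNPU and HNRNPA2B1 at an equal 134 FPKM. In PD, HNRNPF was highest at 188 FPKM, followed by HNRNPA1 (143 FPKM), HNRNPK (140 FPKM) and HNRNPAB (137 FPKM), whose libraries overlapped. In fragments, HNRNPA1 stayed above HNRNPF in every library, with 11336 to 21389 against 9711 to 10973. PTBP1 went from 8th to 5th, beside HNRNPU at 86.8 and HNRNPC at 85.6 FPKM, which lay within its spread.

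Of the 11 SR protein genes, all tested, 9 were lower and the other 2 did not pass, and the median change was -0.39 on the log2 scale. SRSF11, an RS domain protein that works with early splice site factors, was at 28.3, 28.4 and 26.2 FPKM in DMSO and at 16.7, 15.2 and 16.4 FPKM in PD. It had the largest fall of the SR genes, with no overlap (log2 fold change -0.74, SE 0.05, limma adjusted p = 2.3e-05). SRSF1, the founding SR protein, also known as a proto-oncogene, was at 80.4, 81.4 and 79.6 FPKM in DMSO and at 49.9, 47.5 and 50.7 FPKM in PD. The mean fell from 80.5 ± 0.915 to 49.3 ± 1.67 FPKM (SD, n = 3; a change of -38.7%, SE of the log2 value 0.03, limma adjusted p = 6.3e-06). SRSF1 had the highest FPKM of the SR genes in both groups. It held 2760 to 4641 fragments per library, and SRSF3 held 3787 to 6385.

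SRSF3, the smallest SR protein, also serves in mRNA export. It was at 51.9, 51.0 and 50.2 FPKM in DMSO and at 32.7, 32.2 and 32.6 FPKM in PD (log2 fold change -0.64, SE 0.03, limma adjusted p = 5.7e-06). The spread within each group was small beside the gap between them. SRSF10, a repressor when dephosphorylated, was at 30.1, 29.4 and 27.5 FPKM and then 18.0, 18.3 and 19.7 FPKM (log2 fold change -0.61, SE 0.05, limma adjusted p = 5.3e-05).

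The other called SR genes fell less: SRSF4 by 0.47, SRSF7 by 0.39, SRSF5 by 0.31, SRSF6 by 0.28 and SRSF2 by 0.28 on the log2 scale. SRSF2, a marker protein of nuclear speckles, shares exon sequence with MFSD11 on the opposite strand. SRSF8 did not pass (log2 fold change -0.06, limma adjusted p = 0.35), but did after the GC content and length trend (-0.14, adjusted p = 0.043). SRSF9 was at 25.6, 23.3 and 30.9 FPKM in DMSO and at 25.5, 25.8 and 29.3 FPKM in PD, with overlapping groups and the widest spread of the SR genes. Its log2 fold change was 0.02 (95% interval -0.22 to 0.26, limma adjusted p = 0.88). The interval reaches -0.22, short of the estimates for SRSF6 and SRSF2. Their own 95% intervals, -0.42 to -0.14 and -0.35 to -0.21, overlap it, and a difference between these genes was not tested. SRSF9 overlaps exons of NRAV and GATC.

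SRSF1 and HNRNPA1 oppose each other at many splice sites, where SRSF1 favours the nearer and HNRNPA1 the farther site. Their ratio was 0.339 ± 0.00803 in DMSO and 0.346 ± 0.0231 in PD (SD, n = 3), since both fell by a similar proportion. The summed FPKM of the SR genes went from 421 ± 5.64 to 309 ± 6.59 and that of the hnRNP genes from 1742 ± 15.4 to 1310 ± 6.56 (SD, n = 3). The ratio of these sums was 0.242 ± 0.00132 and 0.236 ± 0.00619. These ratios carry no test.

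TRA2A and TRA2B are RS proteins that bind GA-rich exon enhancers. TRA2A was at 25.6, 25.5 and 21.0 FPKM in DMSO and at 14.3, 13.7 and 12.5 FPKM in PD (log2 fold change -0.79, SE 0.08, limma adjusted p = 0.00018). TRA2B was at 35.9, 36.8 and 36.2 FPKM and then 22.5, 21.7 and 21.1 FPKM (log2 fold change -0.71, SE 0.04, limma adjusted p = 6.7e-06). Both were lower in every PD library than in any DMSO library, and their sum fell from 60.4 ± 2.72 to 35.3 ± 1.61 FPKM (SD, n = 3). This pair had the lowest median of the role groups, at -0.75.

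Of the 6 kinases that phosphorylate the RS domain, 4 were lower and 2 did not pass, and the median change was -0.18 on the log2 scale. Their summed FPKM went from 71.3 ± 1.98 to 63.7 ± 2.69 (SD, n = 3). CLK1, a nuclear kinase whose own transcripts often keep introns, was at 12.05, 16.4 and 14.3 FPKM in DMSO and at 12.8, 9.56 and 10.2 FPKM in PD. The groups overlapped, since PD replicate 1 lay above DMSO replicate 1, and CLK1 was the 1 called gene of which this holds. Its log2 fold change was -0.36 (SE 0.13, limma adjusted p = 0.043), and the adjusted p was 0.12 without DMSO replicate 2, 0.094 without DMSO replicate 3, 0.13 without PD replicate 2 and 0.12 without PD replicate 3.

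CLK4 was at 3.05, 3.30 and 2.75 FPKM in DMSO and at 2.48, 2.03 and 2.10 FPKM in PD (log2 fold change -0.33, SE 0.08, limma adjusted p = 0.011), on 271 to 438 fragments per library. CLK2 was at 17.9, 17.2 and 17.6 FPKM and then 14.4, 15.7 and 14.6 FPKM (log2 fold change -0.23, SE 0.04, limma adjusted p = 0.0031). CLK4 and CLK2 each had PD libraries wholly under the DMSO libraries. CLK3 was at 3.57, 3.62 and 3.74 FPKM and then 3.12, 3.19 and 3.44 FPKM and did not pass, although its groups did not overlap (log2 fold change -0.13, SE 0.06, limma adjusted p = 0.086). It passed under upper quartile scaling (-0.19, adjusted p = 0.022) and with voom on whole fragments (-0.17, adjusted p = 0.014). CLK2 was at -0.37 after the GC content and length trend.

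The mainly cytoplasmic kinases SRPK1 and SRPK2 changed little. SRPK1 went from 17.6 to 16.4 FPKM (log2 fold change -0.10, limma adjusted p = 0.032), and its adjusted p was 0.065 to 0.10 without DMSO replicate 1, 2 or 3 or PD replicate 2 or 3, each left out alone. SRPK2 was at 15.2 ± 0.757 and 16.1 ± 1.18 FPKM (SD, n = 3; log2 fold change 0.08, limma adjusted p = 0.29). After the GC content and length trend SRPK2 was called higher (0.13, adjusted p = 0.028), and under upper quartile scaling it was at 0.00081. The count of lower kinases was 2 without DMSO replicate 2, DMSO replicate 3, PD replicate 2 or PD replicate 3.

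ESRP1 and ESRP2 set splice forms of epithelial cells. ESRP2 was at 10.3, 10.6 and 10.9 FPKM in DMSO and at 7.04, 7.53 and 7.55 FPKM in PD, with no overlap (log2 fold change -0.47, SE 0.05, limma adjusted p = 0.00011). ESRP1 had 0 to 3 fragments in a library and was not tested. Of 10 epithelial markers, 8 had a row and 5 reached 1 FPKM (EPCAM, KRT8, KRT18, CLDN4 and CLDN7). CDH1, CLDN3 and RAB25 stayed under 1 FPKM in every library. CDH1 had means of 0.127 FPKM in DMSO and 0.0343 FPKM in PD, and EPCAM of 1.17 and 1.03 FPKM. The epithelial list summed to 122 to 130 FPKM in DMSO and 139 to 147 FPKM in PD. Of its 6 tested members, 3 were higher, 1 was lower and 2 did not pass. KRT8 went from 50.1 to 68.9 FPKM, about the size of the rise of the sum, while CLDN7 fell by 0.53 on the log2 scale (limma adjusted p = 0.00029) and KRT18 and EPCAM did not pass. A mesenchymal list of 10 had 9 rows, 7 of them reaching 1 FPKM. It summed to 174 to 195 FPKM in DMSO and 186 to 196 FPKM in PD. Of its 7 tested members, 2 were higher, 1 was lower and 4 did not pass. VIM, 1 of the 2 higher, went from 20.7 to 29.6 FPKM. An endothelial list of 8 had 7 rows, of which ESAM reached 1 FPKM, and summed to 29.0 to 32.5 and 34.6 to 35.8 FPKM.

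All 45 genes together summed to 2305 ± 23.1 FPKM in DMSO and 1725 ± 3.12 FPKM in PD (SD, n = 3), a change of -25.2%. As a share of the library they held 1.40% ± 0.0185 and 1.01% ± 0.00840 of all fragments (SD, n = 3). Exons of 25 of the 45 overlap another annotated gene, and the strand setting of the counting is not given in the sources used here. Of the 19 tested genes with no such overlap, 16 were lower and 1 was higher, beside 26.2% lower and 31.9% higher of all genes tested. The shares among all tested genes without an overlap were not worked out.

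**Figure D4:**
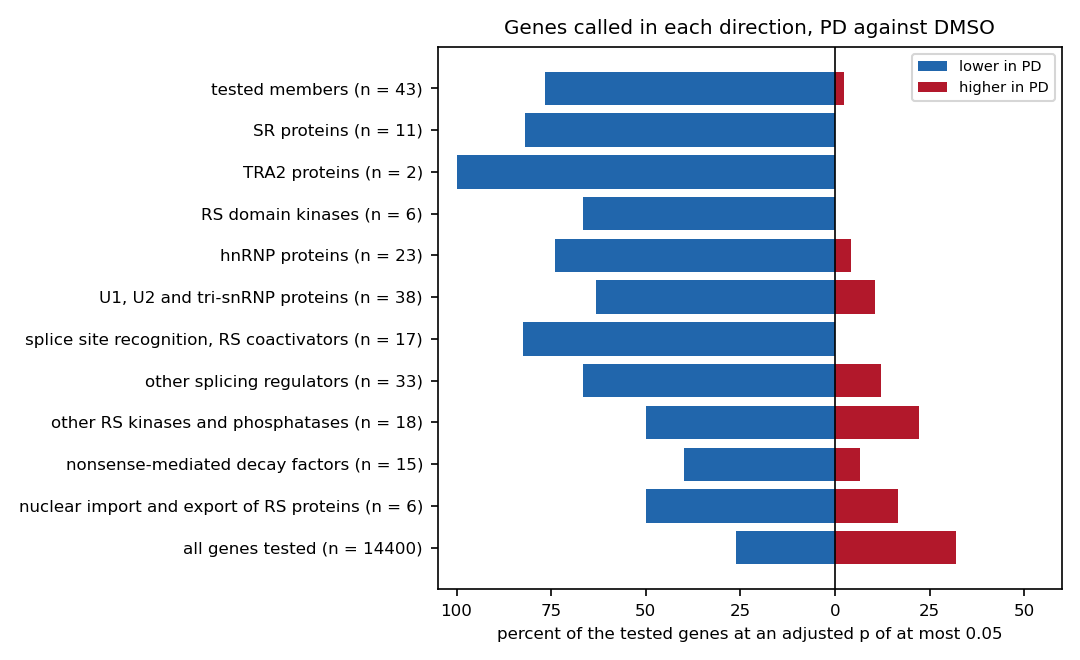
Percent of the tested genes of each role group and of each list of other splicing genes that were lower (left) or higher (right) in PD at a limma adjusted p of at most 0.05, with the number tested in brackets. All genes tested stand at the bottom, with 26.2% lower and 31.9% higher. Lower genes outnumber higher genes in every group shown except all genes tested.

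Other genes of the splicing pathway were taken as 6 lists of 138 genes, of which 127 were tested. Of these, 78 were lower, 14 were higher and 35 did not pass, and the median change was -0.22 on the log2 scale. Among proteins of the U1, U2 and tri-snRNP particles, the core of the spliceosome, 24 of 38 were lower and 4 were higher. The largest changes there were LUC7L3 (log2 fold change -0.72) and LUC7L2 (-0.64), which belong to the U1 particle, and PRPF3 (-0.66), a tri-snRNP protein.

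Among factors that recognise splice sites and RS coactivators, 14 of 17 tested were lower and 3 did not pass. PNN, a speckle protein that binds RS proteins, was at 47.9 ± 2.12 FPKM in DMSO and 20.8 ± 0.853 FPKM in PD (SD, n = 3; log2 fold change -1.16, limma adjusted p = 3.4e-06), a fall as large as that of HNRNPDL. SREK1 and SRRM1, which both carry RS domains, had log2 fold changes of -0.65 and -0.57. Among other splicing regulators 22 of 33 tested were lower and 4 were higher, with RBMX, a protein also named hnRNP G, at -0.87, MBNL2 at -0.82 and CELF2 at -0.81. The log2(FPKM + 1) scale understates the change of CELF2, whose level is low. In FPKM, CELF2 fell the most of these, from a mean of 1.90 to 0.649 (-65.8%), beside -46.0% for RBMX and -47.2% for MBNL2.

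The other enzymes that act on RS proteins were mixed, with 9 lower and 4 higher of 18 tested. DYRK3, a kinase that dissolves speckles in mitosis, rose from 2.30 ± 0.284 to 5.55 ± 0.397 FPKM (SD, n = 3; log2 fold change 0.99, limma adjusted p = 5.3e-05). PPP1CA, a catalytic subunit of the phosphatase PP1, which removes phosphate from SR proteins, rose from 48.0 ± 3.17 to 75.2 ± 2.99 FPKM (SD, n = 3; log2 fold change 0.64). PRPF4B, a kinase of the spliceosome, fell by 0.74 on the log2 scale.

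Of the genes listed for nuclear import and export of RS proteins, some of which carry hnRNPs or mRNA, 3 of 6 were lower and 1 was higher. NXF1, the receptor that carries mRNA out of the nucleus, rose from 9.65 ± 0.899 to 17.0 ± 0.224 FPKM (SD, n = 3; log2 fold change 0.76, limma adjusted p = 5.8e-05). TNPO1, the importin of HNRNPA1, and its relative TNPO2 had log2 fold changes of -0.61 and -0.54. Of 15 nonsense-mediated decay factors, 6 were lower, 1 was higher and 8 did not pass, with a median of -0.08. UPF2, a core decay factor, was at -0.52, and MAGOHB and MAGOH, of the exon junction complex, were at -0.46 and -0.35.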

How the data were processed

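The authors sequenced poly(A) RNA as read pairs, aligned it with HISAT2 to hg38, counted it with HTSeq 0.6.0, deposited FPKM values per gene and tested counts with DESeq2. The strand setting and annotation release are not given in the sources used here. FPKM values of 6 columns were read, and symbols came from GENCODE 44 by gene ID (28161 of 28563 matched). Whole fragments were worked back from the FPKM steps, within 0.002 fragments, for library depth and for 1 alternative.

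The 14400 genes averaging 0.5 FPKM or more were tested on log2(FPKM + 1) with limma 3.58.1 in R 4.3.3, with a prior variance that follows the level and Benjamini-Hochberg adjustment over all of them. The log2(FPKM + 1) scale understates changes of low genes. A gene was called at an adjusted p of at most 0.05. Because counts were not the deposited unit, limma voom on the whole fragments served only as an alternative. The script was tested on simulated data.

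Members and lists were chosen with earlier results of these data known. Full values were given for members changed at least 2-fold and for the 4 members (8 hnRNPs) of each role with the largest change. They were also given for the SR and hnRNP member with the smallest change. The 3 largest called changes of each other list were named, many of them with the log2 fold change only. HNRNPH1, HNRNPF and all ratios and motifs were chosen after their values were seen.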

Additional observations from a re-analysis of the deposited data

How the results depend on the processing

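Each of the 43 tested genes was refitted under 14 alternatives, and 29 of the 34 called genes were called in the same direction under every one. The count of lower genes was 30 to 35 and that of genes changed at least 2-fold was always 2. The count of higher genes was 0 without the filter on low values, under median-of-ratios or upper quartile scaling of FPKM and with a constant prior variance, and 0 to 1 leaving out 1 library. At an unadjusted p under 0.05, limma gave 1 higher gene without the filter and 0 under the other 3 settings. The count of lower RS domain kinases was 2 with the replicate block and with a constant prior variance, and 2 to 4 leaving out 1 library. After subtracting a trend with GC content and length, an alternative added after seeing the data, 10 nonsense-mediated decay factors were lower. In that setting 30.7% of all genes tested were lower, beside 26.2% in the main setting. Log2 fold changes near 0 changed sign. SRSF9 was at -0.0029 under median-of-ratios scaling, -0.061 under upper quartile scaling, -0.0022 after the GC and length trend and -0.066 to 0.13 leaving out 1 library. HNRNPUL1 was at -0.0098 under median-of-ratios scaling, -0.069 under upper quartile scaling, -0.15 after the GC and length trend and -0.0048 to 0.047 leaving out 1 library. HNRNPLL was at -0.050 under upper quartile scaling and -0.0097 to 0.056 leaving out 1 library, and HNRNPF at -0.0058 after the GC and length trend. The cause was not tested. PTBP1 had an adjusted p of 0.051 with a constant prior variance. The replicate numbers are shared only as numbers: deviations of same-numbered libraries correlated at -0.03, -0.0046 and 0.09, and not every library correlated best with its own number. With the replicate block, 31 genes were lower and 1 higher, and 8032 of all genes were called in place of 8368. At this depth ESRP1 and HNRNPUL2-BSCL2 could not be tested, and FPKM per gene cannot show splice forms.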
